A study of Mus musculus with 8 samples.

Results

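A set of 7 genes of cholesterol synthesis were followed in neonatal mouse brain: Hmgcs1, Idi1, Fdft1, Sqle, Lss, Dhcr7 and Insig1. They were taken by name from the gene column of the count table, where all 7 had a row among 24015 entries. RNA sequencing (poly(A)-selected, stranded libraries) had been run on 8 C57BL/6N mice at postnatal day 7 (P7) that carried 0, 1 or 2 copies of a germline Cas9 deletion of the 1b promoter region of Scn1a, the gene for the sodium channel NaV1.1. There were 2 WT libraries, both from males, 4 heterozygous 1b+/- libraries, from 2 males (replicates 1 and 2) and 2 females (replicates 3 and 4), and 2 homozygous 1b-/- libraries, both from females. No agent was given to any group, and all carriers came from a single deletion line. Hippocampus is the tissue on the labels, but forebrain is the P7 tissue in the methods.

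Cholesterol is built from acetyl-CoA through mevalonate, isoprenoid diphosphates, squalene and a series of sterols. The brain makes its own cholesterol, because plasma lipoproteins do not cross the blood-brain barrier, and demand is high in the early postnatal period, when membranes and then myelin are laid down. Most genes of the route are activated together by the transcription factor SREBP2, which is released from the endoplasmic reticulum when membrane sterol is low and held there with the help of INSIG proteins when it is high.

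Total counts ran from 2947770 (1b+/- replicate 4) to 20878772 (1b+/- replicate 3). Scn1a itself followed the labels, with 45.1 and 40.4 CPM (the count of a gene scaled to its library's TMM-adjusted total) in WT, 26.6, 22.2, 25.4 and 15.7 in 1b+/-, and 3.18 and 2.001 in 1b-/-. Each neuron, astrocyte and forebrain marker listed had counts in the data, but the libraries were not alike in makeup. Summed epithelial markers were 50.4 to 174 CPM in WT and 2.62 to 8.48 CPM in 1b+/-, choroid plexus markers were 1065 to 1120 CPM in WT, 113 to 1073 CPM in 1b+/- and 508 to 937 CPM in 1b-/-, astrocyte markers were 846 to 1048 CPM in WT and 1050 to 1156 CPM in 1b+/-, and midbrain and hindbrain markers reached 48.1 CPM in 1b+/- replicate 1 against 1.001 to 11.2 CPM in the other 1b+/- libraries. Their part in the values below was not tested.

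Hmgcs1 encodes the cytosolic synthase that makes HMG-CoA at the start of the route. It had 0 counts in each of the 8 libraries, the deepest included. Taking 3 counts as the most that a 0 allows (counting error only), Hmgcs1 lay under 0.145 CPM in 1b+/- replicate 3 and under 1.001 CPM in 1b+/- replicate 4. The zero therefore covered all genotypes and carried no genotype comparison, and no fold change was computed.

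The position of Hmgcs1 in the genome build used for alignment (mm9) was checked with its promoter. RefSeq (build GRCm38.p6) places the 250 bases before its start at chr13:119690101-119690350 on the plus strand. The sequence is shown because it both locates the gene in mm9 and carries the only match to the relaxed sterol regulatory element among the 17 synthesis genes with a promoter entry; the capitals mark the match.

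Hmgcs1 promoter: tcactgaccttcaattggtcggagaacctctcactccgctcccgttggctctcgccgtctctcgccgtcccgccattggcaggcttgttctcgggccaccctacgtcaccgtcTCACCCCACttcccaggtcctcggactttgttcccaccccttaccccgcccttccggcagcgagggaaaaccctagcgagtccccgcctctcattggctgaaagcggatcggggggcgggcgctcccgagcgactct

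The 300-base RefSeq window that contains this sequence (250 bases before the start and 50 after) matched mm9 at 2 places, both on unplaced scaffolds and none on a chromosome. A gene-length stretch of 17910 bases at either place was cut into 17861 overlapping windows of 50 bases, the read length of these libraries. Of these windows, 0% occurred at a single place in mm9, 96.1% occurred exactly 2 times and 3.86% more often. GENCODE vM1, an annotation on the same build, has no model under this symbol. A 50-base read from this stretch would thus have had at least 2 equal places to align, and how the deposited counts treated such reads is not stated in the sources used here.

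Idi1, the isomerase that turns isopentenyl diphosphate into dimethylallyl diphosphate, also has copies in mm9. Only 15.6% of the 2621 windows in its exons (chr13:8884852-8891641, plus strand, 5 exons, mm9) occurred at a single place. The largest copy, holding 84.0% of the windows, lay at chr2:53553399-53555869, where GENCODE vM1 annotates Gm13502. A smaller copy with 18.05% of the windows lay at chr5:87797168-87799539 with no annotated gene. Idi1 had 4 to 35 counts per library. The other 5 genes were less repeated, with single-place shares of 66.9% for Insig1, 80.3% for Fdft1, 98.8% for Sqle, 99.2% for Dhcr7 and 99.5% for Lss.

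**Figure D1:**
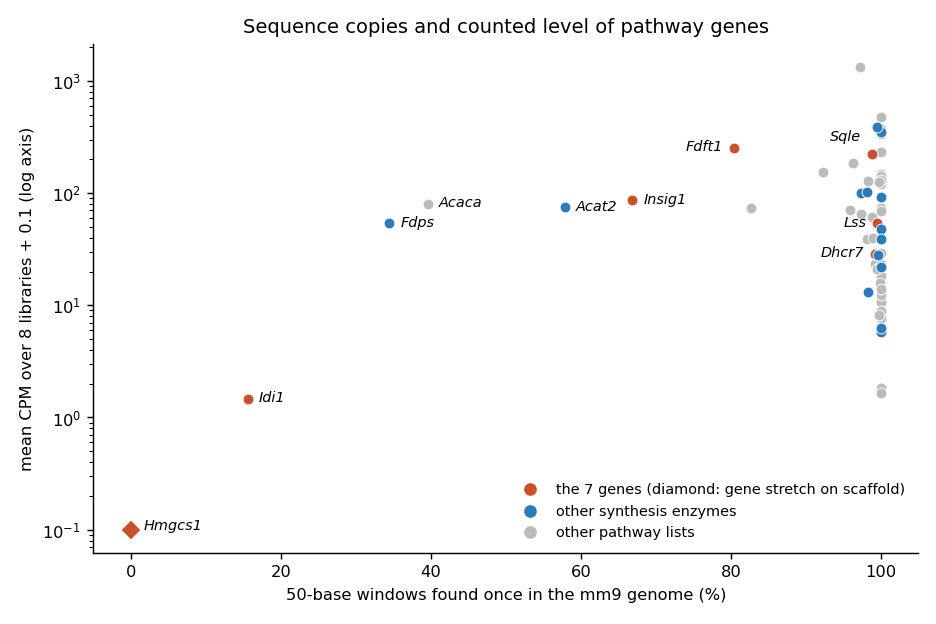
Share of 50-base windows found at a single place in mm9 (x axis, %) against the mean level over 8 libraries (y axis, CPM + 0.1 on a log axis) for the cholesterol synthesis genes (orange), the other synthesis enzymes (blue) and the other pathway lists (gray). Hmgcs1 (diamond, its stretch on a scaffold) sits at 0% and 0 CPM and Idi1 at 15.6% and 1.37 CPM, while Fdps at 34.4% had 53.6 CPM.

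Across the genome, 69.8% of the 516 protein-coding genes with under 20% single-place windows had 0 counts in all 8 libraries, against 0.887% of the 17024 genes with 80% or more. Whether repeats or low expression in this tissue lay behind these zeros was not tested. A low share did not always go with a low level: Fdps, which makes farnesyl diphosphate, had 34.4% single-place windows and 53.6 CPM. The levels of Hmgcs1 and Idi1 are therefore given as counted, and are uncertain as measures of their transcripts.

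Per kilobase of exon, the 6 counted genes spanned a wide range. Fdft1 stood at 88.6 CPM per kilobase averaged over the 8 libraries, next to Cyp51, the lanosterol demethylase, at 90.0, and their ranges overlapped. Both lay above Sc5d, the sterol desaturase, whose highest library (49.7) did not reach the lowest of Fdft1 (72.9). Sqle (40.2) and Insig1 (32.5) followed in the middle of the order, with ranges that overlapped their neighbours. Dhcr7 (7.58) lay apart from Hsd17b7 below it, Lss (4.997) overlapped both its neighbours, and Idi1 (0.478) came last of 21 genes. Exon length set part of this order: with the longest protein-coding transcript in place of all exons, Sqle moved to 80.9 CPM per kilobase, Lss to 11.5 and Dhcr7 to 10.2. The lowest Fdft1 library (72.9) then lay within the range of Sqle (66.2 to 91.6).

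**Figure D2:**
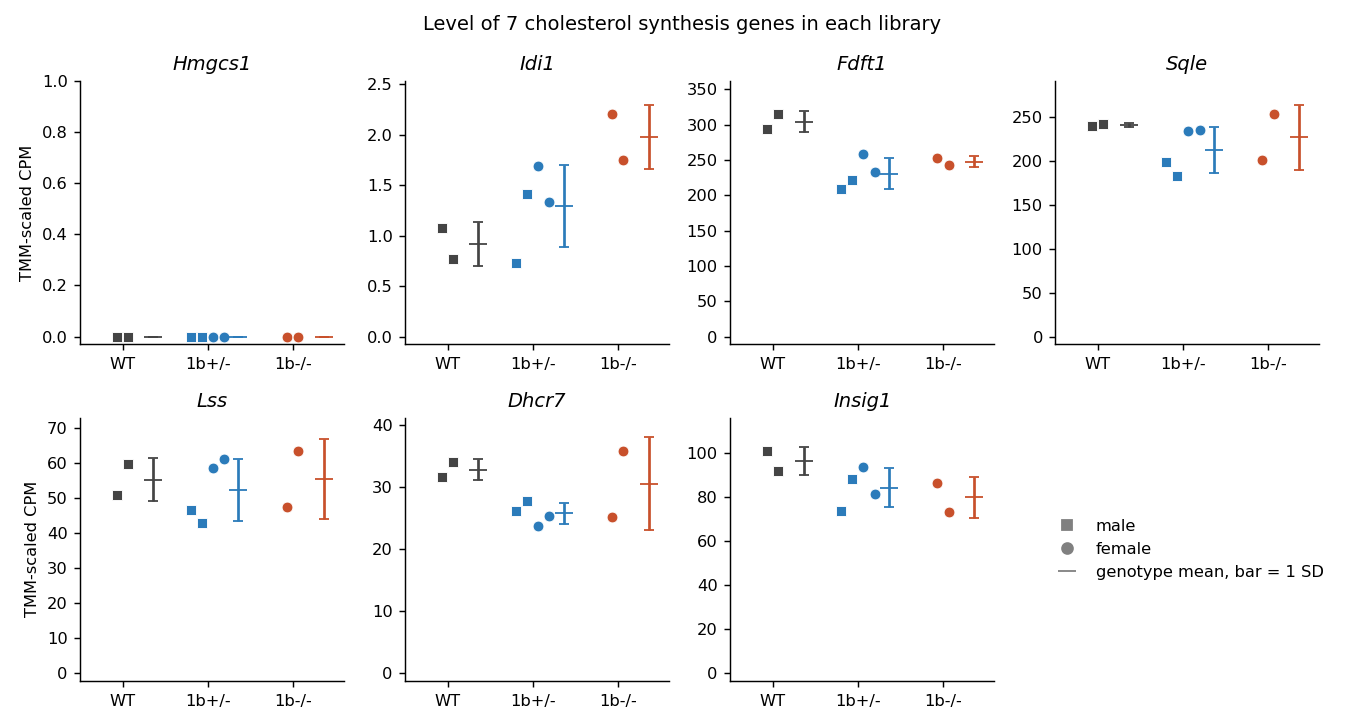
Level of each of the 7 genes (y axis, TMM-scaled CPM, each panel from 0) in every library by genotype (x axis), with squares for males, circles for females, and a bar for the genotype mean and 1 SD (n = 2, 4 and 2). Hmgcs1 is at 0 throughout, and all 6 1b+/- and 1b-/- libraries lie below both WT libraries for Fdft1.

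The largest genotype difference by unadjusted p was in Fdft1, squalene synthase, which joins farnesyl diphosphate molecules into squalene and commits carbon to sterols. Fdft1 was at 294 and 315 CPM in WT, at 209, 222, 259 and 233.5 in 1b+/-, and at 253 and 242 in 1b-/-. Every carrier library was thus below both WT libraries. The means were 304 ± 14.6 CPM in WT (SD, n = 2), 231 ± 21.4 in 1b+/- (SD, n = 4) and 248 ± 7.46 in 1b-/- (SD, n = 2). In 1b+/- against WT the log2 fold change was -0.40 (SE 0.13, 95% interval -0.68 to -0.11), a ratio of 0.759. Before adjustment its p was 0.00956, and after adjustment over all genes 0.9999 in edgeR's quasi-likelihood test, so it did not pass the threshold of 0.05. In 1b-/- against WT the log2 fold change was -0.30 (SE 0.15, interval -0.63 to 0.03), and 1b-/- and 1b+/- differed by 0.10 (SE 0.13, interval -0.18 to 0.39). Sex as a covariate gave -0.49 for 1b-/- against WT (adjusted p 0.9999 in edgeR). In this and every such fit below, the sex term rests on the 4 1b+/- libraries alone, because no other genotype held both sexes.

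The Fdft1 value kept its direction within males and without each library. Between the 2 male WT and the 2 male 1b+/- libraries alone the log2 fold change was -0.49, and over 17 alternative settings, each library left out in turn included, it ran from -0.50 to -0.35. The lowest adjusted p among these was 0.546, from the likelihood ratio test. Fdft1 lies at chr14:63763990-63796630 on the minus strand of mm9, and 26.9% of its exon bases overlap Ctsb, a lysosomal protease gene on the opposite strand; whether counting used strand is not stated in the sources used here. Ctsb differed by 0.09 (SE 0.17) in 1b+/- and by -0.06 (SE 0.19) in 1b-/- against WT. Summed neuron markers were 6461 to 6473 CPM in WT, 5341 to 6402 in 1b+/- and 6035 to 6563 in 1b-/-. Summed oligodendrocyte markers were 193 to 246, 274 to 326 and 228.5 to 254.9 CPM, in the same order. For both lists the 1b-/- range thus overlapped that of WT. Summed epithelial markers were 50.4 to 174 CPM in WT, 2.62 to 8.48 in 1b+/- and 5.003 to 7.216 in 1b-/-. On that list, as for Fdft1, all carriers lay below both WT libraries. The part of these marker lists in the Fdft1 value was not tested. In bulk tissue, fewer cells of a type and less RNA per cell cannot be told apart.

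Sqle, the epoxidase that acts on squalene and is a rate-limiting enzyme of the route, was at 239 and 242 CPM in WT and at 198, 183, 234 and 234.5 in 1b+/-. The 1b-/- libraries stood at 201 and 253 CPM, on either side of WT. The 1b+/- range lay wholly below WT, and the log2 fold change was -0.18 (SE 0.15, interval -0.51 to 0.15). For 1b-/- against WT it was -0.09 (SE 0.17, interval -0.47 to 0.29). Both intervals include 0. Sex as a covariate gave -0.34 and -0.39, neither past the threshold.

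Lss, the cyclase that folds oxidosqualene into lanosterol, was at 51.0 and 59.7 CPM in WT, at 46.8, 42.9, 58.5 and 61.4 in 1b+/-, and at 47.5 and 63.5 in 1b-/-. All 3 genotypes overlapped. The log2 fold change was -0.08 (SE 0.19, interval -0.50 to 0.33) in 1b+/- and -0.00 (SE 0.22, interval -0.48 to 0.48) in 1b-/- against WT. A fit with sex as a covariate gave -0.30 for 1b+/- and -0.42 for 1b-/-, again not past the threshold.

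Dhcr7 reduces 7-dehydrocholesterol to cholesterol at the end of the route. It was at 31.6 and 34.0 CPM in WT and at 26.1, 27.8, 23.7 and 25.4 in 1b+/-, with no overlap between these groups. The 1b-/- libraries stood at 25.2 and 35.8 CPM, so that 1 lay below WT and the other above it. The log2 fold change was -0.35 (SE 0.18, interval -0.73 to 0.04) in 1b+/- against WT (edgeR p 0.0699, adjusted p 0.9999), and -0.12 (SE 0.21) in 1b-/- against WT.

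Idi1 lay the other way, on very few counts. It was at 1.07 and 0.766 CPM in WT (13 and 5 counts), at 0.725, 1.41, 1.695 and 1.33 in 1b+/-, and at 2.20 and 1.75 in 1b-/- (18 and 7 counts). Both 1b-/- libraries were above all WT and 1b+/- libraries. The log2 fold change of 1b-/- against WT was 1.08 with a wide interval (SE 0.62, -0.26 to 2.43; edgeR p 0.1002, adjusted p 1). A fit with sex as a covariate gave 0.49. Most windows of Idi1 are shared with the stretch on chromosome 2, and how reads that match several places were treated is not stated. These counts may therefore leave out reads of Idi1 or take in reads from that stretch.

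Insig1 is no enzyme but the sterol-regulated membrane protein that retains the SREBP2 escort SCAP in the endoplasmic reticulum, and it is itself an SREBP2 target. It was at 101 and 91.7 CPM in WT, at 73.6, 88.3, 93.75 and 81.4 in 1b+/-, and at 86.3 and 73.3 in 1b-/-. Both 1b-/- libraries were below WT, whereas 1b+/- replicate 3 lay inside the WT range. The log2 fold change was -0.19 (SE 0.15, interval -0.51 to 0.13) in 1b+/- and -0.27 (SE 0.17, interval -0.64 to 0.10) in 1b-/- against WT.

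**Figure D3:**
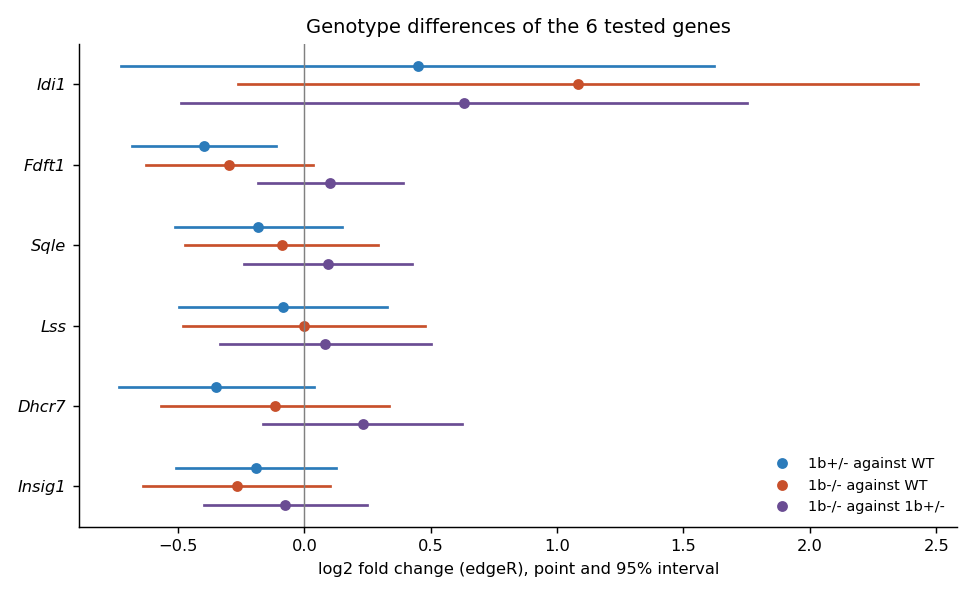
Log2 fold change from edgeR (x axis; point, with a line for the 95% interval) of the 6 tested genes (y axis) for 1b+/- against WT (blue), 1b-/- against WT (orange) and 1b-/- against 1b+/- (purple). The interval of Fdft1 in 1b+/- against WT, -0.68 to -0.11, is the only one drawn that leaves out 0, and the Idi1 intervals are the widest.

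Counted together, 0 of the 6 tested genes passed an adjusted p of 0.05 in edgeR in any comparison. Of all 15588 genes, 0.0834% did for 1b+/- against WT and 0.00642% for each of the comparisons with 1b-/-. In each of the latter this was 1 gene, Scn1a itself (edgeR adjusted p 0.000597 against WT and 0.00491 against 1b+/-). DESeq2 also called 0 of the 6. At an unadjusted p of 0.05, 1 gene (Fdft1) differed in 1b+/- against WT, where 4.34% of all genes did. None of the 6 did in 1b-/- against WT or against 1b+/-, where 1.64% and 1.23% of all genes did. The median log2 fold change of the 6 was -0.19 in 1b+/- and -0.10 in 1b-/- against WT, beside 0.01 and -0.01 over all genes. These comparisons share the WT libraries.

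The ranges of the genotypes were also compared. In 1b+/- against WT, 3 of the 6 genes (Fdft1, Sqle and Dhcr7) had all carriers below both WT libraries, as did 5.93% of all genes, and 0 had them above, as did 6.4%. In 1b-/- against WT, 2 (Fdft1 and Insig1) lay wholly below and 1 (Idi1) wholly above, where 12% and 11.6% of all genes did. Between 1b-/- and 1b+/-, Idi1 alone was apart (higher, as were 3.41% of all genes, while 3.98% were lower). The smallest p an exact permutation of 2 against 4 libraries allows is 0.133, so that separation of the ranges cannot reach 0.05 by itself.

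WT animals were male and 1b-/- animals female, so genotype and sex cannot be told apart between them; 1b+/- alone held both sexes. Within 1b+/-, both females were above both males for Fdft1, Sqle and Lss, 3 of the 6 genes, where 12.1% of all genes were, and both were below for Dhcr7, where 14.1% were. The widest of these was Lss, with a log2 difference (female minus male) of 0.42 (SE 0.19, interval -0.01 to 0.84; edgeR p 0.0546, adjusted p 0.9999). Sqle differed by 0.30 (SE 0.16) and Fdft1 by 0.20 (SE 0.15). None of the 6 passed the threshold, which 0.0321% of all genes did, and none had an unadjusted p under 0.05, which 2.66% did. In this design the 2 males are also the libraries with the 2 highest sums of midbrain and hindbrain markers, 48.1 and 11.2 CPM. Neuron markers summed to 5682 and 5341 CPM in the males and 6402 and 6266 CPM in the females, and oligodendrocyte markers to 326 and 298 against 278 and 274 CPM. The part of these markers in the differences was not tested.

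Libraries of a genotype also varied in the mean level of several followed genes. The mean centred log2 level of Fdft1, Sqle, Lss, Dhcr7 and Insig1 was 0.13 and 0.19 in WT, -0.19, -0.15, 0.03 and -0.01 in 1b+/-, and -0.09 and 0.10 in 1b-/-. The 2 lowest libraries were thus the 1b+/- males. The median of the 15 other synthesis enzymes did not follow this order, at -0.04 and 0.01 in WT, -0.01, -0.26, 0.10 and 0.11 in 1b+/-, and -0.08 and 0.16 in 1b-/-. In 1b+/- replicate 2 and 1b-/- replicate 1, where these enzymes were lowest, the median of 900 GC-rich genes was also low, at -0.22 and -0.23; that link was not tested. The SD of a gene's log2 level over the 8 libraries had a median of 0.206 for the 6 tested genes, 0.185 for the other enzymes and 0.199 over all genes with a mean of at least 10 CPM.

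**Figure D4:**
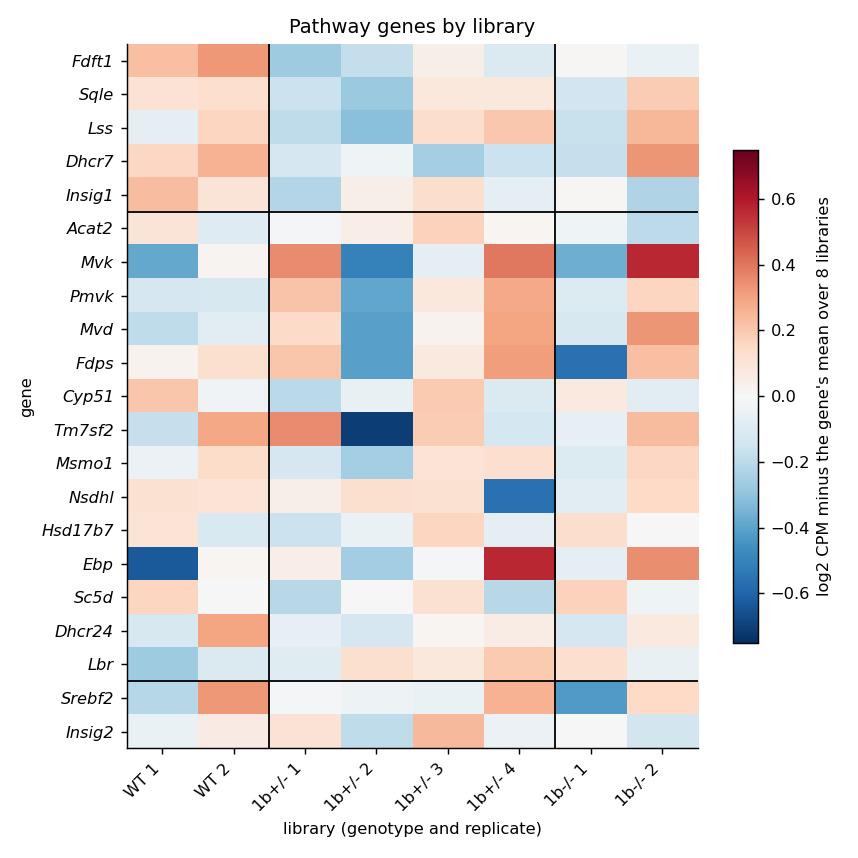
Log2 CPM minus the gene's mean over 8 libraries (colour, red higher and blue lower) for 5 of the followed genes, 14 of the 15 other synthesis enzymes and 2 regulators (rows, parted by lines) in each library (columns, by genotype and replicate); Idi1 and Hmgcs1 are left out for their low counts. Fdft1 is red in both WT libraries, at the left, while Mvk, Pmvk, Mvd and Fdps are all blue in 1b+/- replicate 2.

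Among the 5 genes, Sqle and Lss had the most similar profiles (Pearson r = 0.913 over the 8 libraries, a description without a test), and the other 9 pairs had r from -0.11 to 0.709. All these values share the same libraries and scaling. Outside the pathway lists, the genes most like the mean centred profile of the 6 tested genes, Idi1 included, were Nabp1 (r = 0.960), Slitrk1 (0.959), Tob1 (0.954), Psmd6 (0.946) and Lrrc49 (0.930), out of 9503 compared. They were picked by this r from few libraries, and the r is a description. The 6 tested genes had r from 0.357 (Insig1) to 0.723 (Sqle) with the same mean, of which each is a part. Idi1 weighs most in that mean, with an SD of log2 level of 0.527 against 0.164 to 0.220 for the other 5.

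RefSeq promoter windows were at hand for 5 of the 7 genes (Hmgcs1, Idi1, Lss, Dhcr7 and Insig1) and for 17 synthesis genes in all. A set of 5 motifs was searched on both strands. A gene was counted for a motif if any of its windows held it, and Dhcr7 had 3 windows. The counts of genes are therefore not like for like with the shares of single windows given beside them. The relaxed sterol regulatory element is TCACNCCAC, and the full element is the same with an A before it and a C at the open position, so that each full match is also a relaxed one. The full element was in 0 of the 5 and in 0.0913% of 32851 windows. The relaxed element was in Hmgcs1 alone, 137 bases before the start, as shown in capitals above, and in 1.24% of windows. The CCAAT box (CCAAT, 37.4% of windows) and the GC box (GGGCGG, 35.7%) were each in 5 of 5 and in 16 of the 17. The E-box CACGTG, which overlaps none of these by its letters, was in Dhcr7 and Insig1 and in 7.15% of windows. The promoter of Insig1 (GRCm38.p6, chr5:28071162-28071411, plus strand) is shown for comparison, as the sterol-regulated gene that is no enzyme, with the E-box 101 bases before the start in capitals.

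Insig1 promoter: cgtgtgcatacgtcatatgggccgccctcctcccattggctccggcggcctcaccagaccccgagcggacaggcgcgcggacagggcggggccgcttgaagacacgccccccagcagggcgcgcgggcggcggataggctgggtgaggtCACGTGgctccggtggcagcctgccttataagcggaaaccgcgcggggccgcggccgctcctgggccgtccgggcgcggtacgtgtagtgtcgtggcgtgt

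A match is a description of letters in this window and no evidence of binding. Hmgcs1 and Insig1 share the CCAAT and GC boxes with nearly all synthesis genes. Their levels are not set beside these boxes, because the 0 counts of Hmgcs1 are uncertain as a measure of its transcripts.

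The other genes of the pathway did not pass the test between genotypes either. Of 56 other genes in 5 lists, 0 were called in edgeR in any comparison, and 0 had an unadjusted p under 0.05 between genotypes; DESeq2 also called 0. Over all genes at most 0.0834% were called in these genotype comparisons, and 4.34%, 1.64% and 1.23% had such an unadjusted p; against these shares a count of 0 among 56 genes says little about the lists. Their median log2 fold change was -0.02 in 1b+/- and -0.00 in 1b-/- against WT. Among the 15 other synthesis enzymes the range was -0.15 to 0.37 in 1b+/- against WT, with 9 below 0 and 6 above. Ebp, the sterol isomerase, had the highest value of these enzymes in 1b-/- against WT, 0.44 (SE 0.35).

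In sterol sensing, Srebf2, which encodes SREBP2, was at 76.9 ± 19.9 CPM in WT (SD, n = 2), 75.1 ± 8.03 in 1b+/- (SD, n = 4) and 67.4 ± 18.9 in 1b-/- (SD, n = 2). Insig2, the relative of Insig1, was at 18.3 ± 0.982, 18.7 ± 2.43 and 17.4 ± 1.21 CPM. Mbtps2, a protease that frees SREBP from the membrane, had the lowest value of all 56 genes in 1b+/- against WT at -0.27 (SE 0.19), and Nr1h3, a sterol-activated nuclear receptor, the lowest in both comparisons of 1b-/-, at -0.50 (SE 0.63) against WT and -0.47 (SE 0.56) against 1b+/-, with a mean of at most 1.97 CPM in any genotype. In uptake and transport, Apoe, the main brain apolipoprotein, was at 0.52 (SE 0.31) in 1b+/- against WT and at -0.37 (SE 0.31) in 1b-/- against 1b+/-. Abcg1, a sterol exporter, and Vldlr, a lipoprotein receptor, were the highest in that comparison, each at 0.18.

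Of the isoprenoid side branches, Nus1, for dolichol, was at -0.23 (SE 0.16) in 1b+/- and Pdss2, for ubiquinone, at -0.44 (SE 0.32) in 1b-/- against WT. The medians of this list were 0.01 and -0.04, and those of 10 fatty acid synthesis genes -0.05 and -0.04. Between the sexes within 1b+/-, 40 of the 56 genes were above 0, females being higher, where 49.3% of all genes were. Of the 15 other synthesis enzymes 14 were, with a median of 0.17. Both females were above both males for 3 of these 15, where 12.1% of all genes were. Their median centred levels were -0.01 and -0.26 in the males and 0.10 and 0.11 in the females. These genes share the same 4 libraries, so the counts are not of independent genes. None of the 56 passed the adjusted threshold in edgeR.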

How the data were processed

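Reads of 50 bases, single-end, were aligned by the authors to mm9 (STAR 2.7.2), and featureCounts gave a count for each gene; the deposited table holds these raw counts, with no normalization, for 8 libraries. Strand use, the treatment of reads that match several places and the annotation release used in counting are not given in the sources used here. Total counts ran from 2947770 to 20878772, and 3 counts were taken as the most that a 0 allows. Such floors cover counting error only, while the 95% intervals of the fold changes also hold the fitted spread between libraries. Groups came from the genotype labels, and each library was taken as 1 mouse, as the study counts them; the labels do not name animals.

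Counts were tested with edgeR 4.0.16 in R 4.3.3 (TMM scaling, genotype as the only term, all 8 libraries in 1 fit, quasi-likelihood test, Benjamini-Hochberg adjustment) over the 15588 genes that reached 1 CPM in any library. This passed 6 of the 7 genes, all but Hmgcs1. The code was tested on simulated data. As alternatives, the filter was replaced by filterByExpr or left out, scaling was by RLE or upper quartile, and results were recomputed with the likelihood ratio test, DESeq2 1.42.0, sex as a covariate, only the compared groups, only the shared sex, and leaving out each library; exon length was exchanged for the longest transcript after seeing the data. Standard errors used the fitted weights and the posterior quasi-dispersion. Windows of 50 bases in GENCODE vM1 exons were looked up in the mm9 genome on both strands, and promoters were RefSeq windows of GRCm38.p6.

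The 7 genes and all lists were chosen with earlier results of these data known. All 7 were named; of the 56 other pathway genes the 2 highest and 2 lowest in each genotype comparison were named, with Srebf2 and Insig2 whatever their values, as were the 5 genes outside the lists with a mean of at least 10 CPM most like the mean profile. Ctsb, Scn1a, Fdps, Cyp51, Hsd17b7, Sc5d, Msmo1, Mvk, Pmvk and Mvd were named after their values were seen. Some pathway genes that these rules name are not reported here.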

Additional observations from a re-analysis of the deposited data

Results flagged for a closer look

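Among the 4 1b+/- libraries, 3 of 59 measures had a library whose gap to its nearest neighbour, as a share of the whole range, passed Dixon's 95% critical value for 4 samples; chance would flag about 2.95 of 59, or 1 in 20. None of the 7 followed genes was among them. Nsdhl, a sterol dehydrogenase of the route, was at 31.7 CPM in replicate 4 against 48.3 to 50.9 in the others, a gap of 0.865 of the range. Srebf2 was at 87.1 CPM in replicate 4 against 70.3 to 72.3, a gap of 0.881. Pggt1b, a prenyltransferase subunit, was at 19.9 CPM in replicate 1 against 26 to 26.7, a gap of 0.900. Replicate 4 is the shallowest library, and replicate 1 has the highest midbrain and hindbrain marker sum; their part in these gaps was not tested.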

How the results depend on the processing

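Calls on the pathway did not depend on any setting tried: 0 of the 6 tested genes and 0 of the 56 other pathway genes were called in every alternative of all 4 comparisons. Counts over all genes did. Scn1a was the 1 gene that edgeR called in each comparison with 1b-/- before any setting was changed. In 1b+/- against WT, 13 genes passed in edgeR, 57 with no filter on low counts, 64 with the likelihood ratio test, 24 in DESeq2, and 0 with sex as a covariate (867 at an unadjusted p under 0.05) or with males only (657). Leaving out 1 library gave 0 to 30: 0 without WT replicate 1 (308 unadjusted) or 1b+/- replicate 3 (767 unadjusted), 4 without 1b+/- replicate 4, 7 without 1b+/- replicate 1 and 30 without WT replicate 2. In 1b-/- against WT, 1 gene passed, 33 with no filter, 23 with the likelihood ratio test, 13 in DESeq2 and 15 with only these groups fitted, and 1 to 16 on leaving out a library (16 without WT replicate 2, 2 without 1b+/- replicate 1). In 1b-/- against 1b+/-, 1 gene passed, and 0 to 1 on leaving out a library, with 0 without 1b-/- replicate 1 (252 unadjusted) or replicate 2 (294 unadjusted). Between females and males within 1b+/-, 5 passed, 85 with no filter, 20 with the likelihood ratio test and 14 in DESeq2, and 5 to 46 on leaving out a library (46 without 1b+/- replicate 2). The cause was not tested.

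The small log2 fold changes that changed sign were all uncalled. Lss in 1b-/- against WT (-0.00) was 0.0019 with filterByExpr, 0.0189 with upper quartile scaling and 0.0063 with only these groups, and ran from -0.22 to 0.20 on leaving out a library. Dhcr7 there (-0.12) was 0.0220 with sex as a covariate and ran from -0.38 to 0.13, and Sqle (-0.09) from -0.26 to 0.0687. In 1b-/- against 1b+/-, Sqle (0.09) was -0.0496 with sex as a covariate and -0.0468 with females only, and ran from -0.0810 to 0.25; Lss (0.08) was -0.12 and -0.11, and ran from -0.13 to 0.29; Dhcr7 (0.23) ran from -0.0293 to 0.48 and Insig1 (-0.08) from -0.20 to 0.0338. Lss in 1b+/- against WT (-0.08) was -0.30 with sex as a covariate and -0.29 with males only, and ran from -0.20 to 0.0322 on leaving out a library, and Insig1 between the sexes (0.12) from -0.0046 to 0.26. Fdft1 kept its direction against WT in both genotypes. With sex as a covariate, Sqle went from -0.18 to -0.34 in 1b+/- and from -0.09 to -0.39 in 1b-/- against WT, and Fdft1 from -0.30 to -0.49 in 1b-/-. No paired analysis was possible because the labels give no replicate numbers that the groups share. With 2 animals in 2 of the groups, and a lone library assumed to vary like the rest when 1 of these was left out, precision is limited for all 6 genes, and for Idi1 also by its 4 to 35 counts a library.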
